A study of Homo sapiens with 12 samples.

Results

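Nocodazole was set against its vehicle at the 2 earliest hours that both treatments share, 7 and 8 h after release from a thymidine block, on 4 of the 12 arrays of the series. The 4 arrays were taken by their labels (nocodazole 7 h and 8 h, DMSO 7 h and 8 h) and paired by hour. HCT116 is a cell line from a human colorectal carcinoma. All its cultures, treated and control, were first held in 2 mM thymidine for 19 h, kept 9 h without it and held in 2 mM thymidine for another 16 h, which stops cells as they enter S phase. Release was into DMSO, the vehicle, or 0.1 mg/ml nocodazole (the concentration that the labels give), so exposure lasted 7 or 8 h. Each condition had 1 Affymetrix U133 Plus 2.0 array of total RNA, and no label says whether cultures of different hours came from 1 synchronization. Values are log2 signals, and a difference is nocodazole minus DMSO at the same hour on this scale.

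Nocodazole binds tubulin and keeps it from assembling into microtubules, so cells that reach mitosis build no spindle and are held by the spindle checkpoint. Free tubulin dimers are known to speed the decay of alpha and beta tubulin mRNAs while these are being translated, a feedback called tubulin autoregulation. Microtubule drugs are also known to activate stress kinases such as JNK, which phosphorylates c-Jun, a subunit of the AP-1 transcription factors and a regulator of its own gene.

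Of 54675 probe sets, 41097 had a single gene symbol, and 9130 genes had a log2 signal of at least 5 on at least 2 of the 12 arrays. Their median was 9.47 and 9.23 with DMSO at 7 and 8 h and 9.32 and 9.41 with nocodazole. The median of the differences taken gene by gene was -0.09 at 7 h and 0.08 at 8 h. Pearson's r between the 4 arrays, over genes, was 0.9911 to 0.9934. The size of the difference had a median of 0.15 at each hour, and DMSO at 8 h differed from DMSO at 7 h by a median of 0.19, so the median treatment difference was smaller than the median change of the control within 1 h. Over genes, the differences at 7 h and at 8 h had a Pearson's r of -0.15 (-0.0763 after quantile normalization). Of 11 colon epithelial markers on the array only 6 were above the filter, EPCAM, KRT8 and KRT19 among them. Of these 6, 0 passed the test described next. The only markers of other cell types above the filter were COL1A1 (fibroblast) and TEK (endothelial), each of which changed sign between the hours. Of 7 leukocyte markers 5 had a probe set with a single symbol, and 0 of these were above the filter.

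At both hours 1673 genes (18.3%) were higher with nocodazole and 1945 (21.3%) were lower, so 39.6% kept their sign (48.8% after quantile normalization) and the other 5512 changed it between the hours. Counts of list members higher or lower at both hours, given below, are to be read beside these shares. Genes were tested with limma on the 4 arrays with hour as a block, which leaves 1 residual degree of freedom before moderation. With an adjusted p under 0.05, 10 genes rose (0.110% of those tested) and 15 fell (0.164%). The 10 that rose were JUN, JUND, FOSL1, ERRFI1, DUSP5, KLF6, CCN1, FHL2, F3 and HAS3. The 15 that fell were 7 alpha and beta tubulin genes (TUBB, TUBB2A, TUBB3, TUBB4B, TUBB6, TUBA1A and TUBA4A), CCNE2, ID1, ID2, KLF10, ZNF503, DLX2, YWHAE and the noncoding PAXIP1-DT. DLX2 and PAXIP1-DT reached the filter's level of 5 on DMSO arrays only, the side where they are high, and without them 13 genes fell. The bulk signal does not tell a change in the share of cells at a stage of the cycle from a change in RNA per cell.

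**Figure D1:**
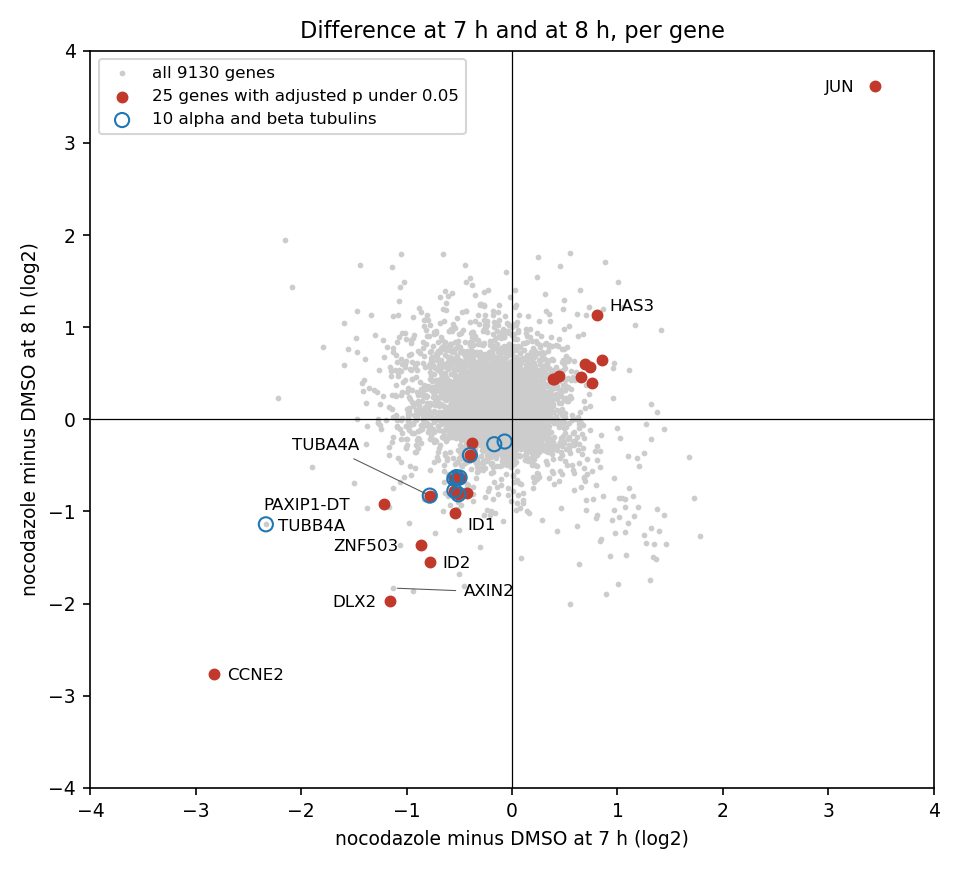
Difference at 7 h (x axis) against the difference at 8 h (y axis), both nocodazole minus DMSO on the log2 scale, for 9130 genes, with the 25 genes that passed limma's test filled and 10 alpha and beta tubulins ringed. JUN lies alone at the upper right (3.44 and 3.62), CCNE2 at the lower left (-2.83 and -2.76), and most genes lie around 0.

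The 25 differed at both hours by more than DMSO changed from 7 to 8 h, which held for 1183 of all genes (13%). Against all 8 DMSO arrays from 0 to 10 h, 13 genes that fell were compared, with DLX2 and PAXIP1-DT left out. Of these, 12 were lower at both hours than the lowest DMSO signal, beside 348 of all genes (3.81%), and KLF10 was the exception. Of the 10 that rose, JUN, F3, FOSL1 and HAS3 were above the highest DMSO signal, beside 245 of all genes (2.68%). The other 6 (ERRFI1, CCN1, DUSP5, KLF6, JUND and FHL2) had their highest DMSO signal at 2 h, above both nocodazole arrays. All these counts reuse the signals at 7 and 8 h by which the genes passed, so they are no separate support for the 25.

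JUN, which encodes c-Jun, had the largest difference among the 9130 genes. Its signals were 6.98 and 7.02 with DMSO at 7 and 8 h and 10.42 and 10.64 with nocodazole, a mean difference of 3.53 or 11.5-fold (SE 0.240, limma adjusted p = 3.66e-06). Over the DMSO course JUN stood at 9.80 at 0 h and reached its lowest signal at 7 h, so both nocodazole arrays were above every DMSO array. The gene has 3 probe sets above the filter and all 3 were higher at both hours, but by different amounts. The brightest, used here, is of a type (_x_at) that can also bind related transcripts and differed by 3.44 and 3.62, another differed by 1.70 and 2.28, and the third by 0.47 and 0.14. With the mean of the 3 the difference was 1.94 (limma adjusted p = 1.61e-06).

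Of 11 AP-1 genes above the filter, 7 were higher at both hours and 2 lower, with a median difference of 0.41 beside -0.01 over all genes, and 3 passed the test. JUND, a c-Jun relative, stood at 12.48 and 12.26 with DMSO and 13.14 and 12.71 with nocodazole (difference 0.55, SE 0.0801, adjusted p = 0.00444). All 3 JUND probe sets were higher at both hours, but with their mean the gene did not pass (0.71, limma adjusted p = 0.0824). A spline of time fitted to all 12 arrays put its difference at 0.43, and at 0.27 without the 7 h arrays. FOSL1, which encodes the c-Jun partner Fra-1, stood at 12.51 and 12.27 with DMSO and 12.90 and 12.70 with nocodazole (0.41, SE 0.0766, adjusted p = 0.0334). At 2 h with DMSO JUND had stood at 13.80, above both nocodazole arrays, and FOSL1 was above all DMSO arrays. ATF3, a stress-induced partner, was 0.50 and 0.55 higher without passing (adjusted p = 0.445). JUNB, which can oppose c-Jun, was lower, with 9.33 and 9.83 against 8.84 and 8.90 (-0.71, adjusted p = 0.451). Both JUNB signals with nocodazole were under all 8 DMSO arrays.

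**Figure D2:**
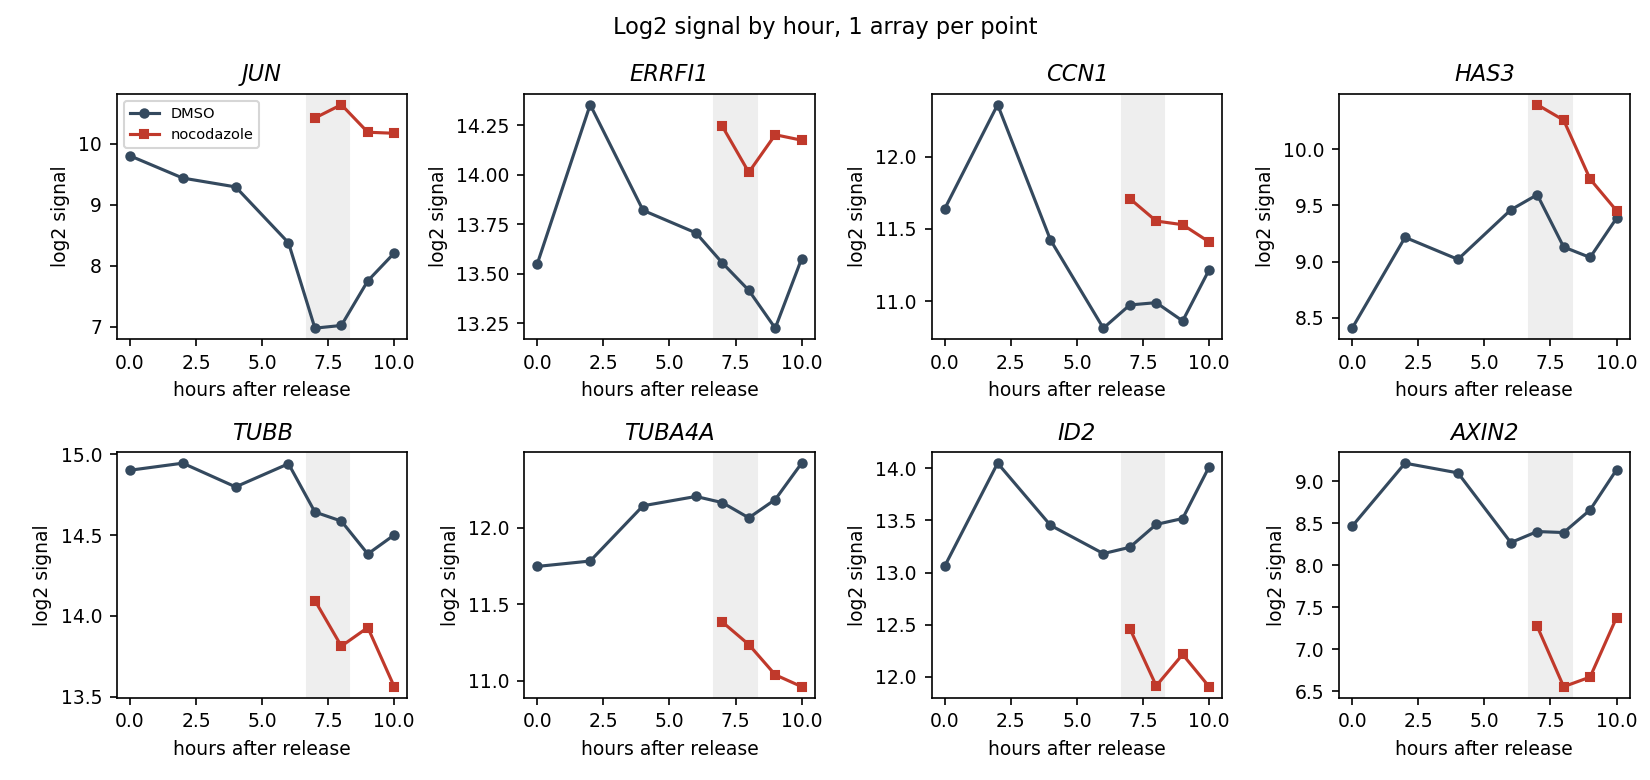
Log2 signal (y axis, own range in each panel) against hours after release (x axis) for 8 genes, 1 array per point, DMSO as circles and nocodazole as squares, with 7 and 8 h shaded. JUN stays above 10 with nocodazole while DMSO falls to 6.98 at 7 h, and TUBB, TUBA4A, ID2 and AXIN2 lie under every DMSO point.

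To show what the promoters of the risen genes share with those of other genes, the 250 bases before the start site (RefSeq, GRCh38.p14) were searched on both strands for the AP-1 motif TGANTCA and the related CRE-like motif TGACNTCA. Of the 10 risen genes 7 had a promoter in the table, and those of JUN, JUND, KLF6 and F3 held a match. Their promoters are given 5′ to 3′ on the minus strand, where all 4 genes lie, with the matches in capitals. They span chr1:58784048-58784297 (JUN), chr19:18281623-18281872 (JUND), chr10:3785210-3785459 (KLF6) and chr1:94541760-94542009 (F3).
JUN promoter: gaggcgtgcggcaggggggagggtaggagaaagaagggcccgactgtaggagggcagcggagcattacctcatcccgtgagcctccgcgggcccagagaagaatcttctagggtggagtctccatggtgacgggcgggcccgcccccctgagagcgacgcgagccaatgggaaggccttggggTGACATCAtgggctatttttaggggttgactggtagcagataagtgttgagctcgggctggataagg
JUND promoter: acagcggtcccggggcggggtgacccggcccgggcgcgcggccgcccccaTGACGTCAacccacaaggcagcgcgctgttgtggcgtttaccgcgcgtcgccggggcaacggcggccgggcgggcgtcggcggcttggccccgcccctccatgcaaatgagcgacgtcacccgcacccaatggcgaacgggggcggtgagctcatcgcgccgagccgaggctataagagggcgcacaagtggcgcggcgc
KLF6 promoter: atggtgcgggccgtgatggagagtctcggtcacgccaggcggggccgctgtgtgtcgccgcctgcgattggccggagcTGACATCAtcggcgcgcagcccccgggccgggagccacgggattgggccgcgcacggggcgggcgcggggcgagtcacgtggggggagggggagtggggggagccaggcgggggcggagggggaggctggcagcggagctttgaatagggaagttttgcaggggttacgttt
F3 promoter: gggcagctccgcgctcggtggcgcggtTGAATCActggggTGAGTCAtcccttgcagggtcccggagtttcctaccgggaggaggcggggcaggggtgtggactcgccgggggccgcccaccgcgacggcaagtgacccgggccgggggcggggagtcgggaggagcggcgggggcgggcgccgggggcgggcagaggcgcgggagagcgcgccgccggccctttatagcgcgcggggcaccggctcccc
The match of JUN starts 67 bases before the start site and reads TGACATCA, the sequence known as a c-Jun and ATF2 site of this promoter. KLF6 holds the same 8 letters 172 bases before its start, JUND holds TGACGTCA 200 bases before its start, and F3 holds TGAATCA and TGAGTCA 223 and 210 bases before its start. Either motif is present in 4 of 7 promoters of risen genes (57.1%) and in 2 of 13 promoters of genes that fell (15.4%). It is present in 13.1% of all 27305 promoters in the table, which are not limited to the genes tested. Taken apart, TGANTCA is in 1 of the 7 (14.3%), 1 of the 13 (7.69%) and 6.6% of all. TGACNTCA is in 3 of the 7 (42.9%), 1 of the 13 (7.69%) and 7.09% of all. With 7 promoters these shares are uncertain. A match describes the letters only, and binding was not measured.

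Genes of growth factor and MAPK feedback were split. Of 23 other immediate early and MAPK feedback genes above the filter, 7 were higher at both hours and 7 lower, with a median of -0.03, 2 rose and 1 fell. DUSP5, a nuclear phosphatase of ERK, stood at 12.06 and 12.21 with DMSO and 12.81 and 12.60 with nocodazole (0.58, SE 0.0921, adjusted p = 0.0110). KLF6, a zinc finger transcription factor, stood at 10.37 and 9.92 with DMSO and 11.22 and 10.56 with nocodazole (0.75, SE 0.131, adjusted p = 0.0205). KLF10, a zinc finger factor induced by TGF-beta, went the other way, with 12.05 and 12.27 against 11.62 and 11.47 (-0.62, SE 0.101, adjusted p = 0.0126). ERRFI1, an inhibitor of the EGF receptor that was in no list, stood at 13.55 and 13.42 with DMSO and 14.24 and 14.01 with nocodazole (0.64, SE 0.0649, adjusted p = 0.000255). MYC was 0.39 and 0.17 higher (adjusted p = 0.253), and NR4A2, an orphan nuclear receptor, differed by -0.46 at 7 h and -1.81 at 8 h (adjusted p = 0.602).

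Of 21 actin, SRF and YAP target genes, 10 were higher at both hours and 1 lower, with a median of 0.11, and 2 rose. CCN1, a secreted matrix protein and a common target of SRF and YAP, stood at 10.97 and 10.99 with DMSO and 11.71 and 11.56 with nocodazole (0.65, SE 0.104, adjusted p = 0.0110). FHL2, a LIM domain cofactor, stood at 12.49 and 12.29 with DMSO and 12.88 and 12.73 with nocodazole (0.41, SE 0.0767, adjusted p = 0.0351). The kinase LATS2 and the YAP inhibitor AMOTL2 were higher by 0.50 and 0.30 without passing (adjusted p = 0.844 and 0.870). The other 2 genes that rose were in no list. F3, which encodes tissue factor, the cell surface starter of coagulation, stood at 12.98 and 12.82 with DMSO and 13.42 and 13.30 with nocodazole (0.46, SE 0.0700, adjusted p = 0.00750). HAS3, a hyaluronan synthase, stood at 9.59 and 9.13 with DMSO and 10.40 and 10.26 with nocodazole (0.96, SE 0.168, adjusted p = 0.0198).

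Alpha and beta tubulin, the subunits of microtubules, were the group with the most genes that fell. Of 18 genes 10 were above the filter, and all 10 were lower with nocodazole at both hours, beside 21.3% of all genes. Their median difference was -0.59, and 7 passed the test as lower, beside 0.164% of all genes. TUBB, the main beta tubulin gene of most cells, stood at 14.64 and 14.59 with DMSO and 14.10 and 13.81 with nocodazole (-0.66, SE 0.0672, adjusted p = 0.000255). TUBA4A, an alpha tubulin, stood at 12.16 and 12.06 with DMSO and 11.38 and 11.24 with nocodazole, a difference of -0.80 or 1.75-fold (SE 0.0919, adjusted p = 0.000412). Neither gene overlapped with any DMSO array, since the lowest DMSO signal of the course was 14.38 for TUBB and 11.75 for TUBA4A.

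The other beta tubulins that fell differed by similar amounts, -0.60 for TUBB3, -0.58 for TUBB2A, -0.56 for TUBB4B and -0.39 for TUBB6 (adjusted p = 0.000321, 0.000549, 0.000321 and 0.0153). TUBA1A fell by 0.66 (adjusted p = 0.0112). The widely expressed alpha tubulins TUBA1B and TUBA1C differed by -0.17 and -0.27 (adjusted p = 0.214) and by -0.07 and -0.24 (adjusted p = 0.871). Their signals were the brightest of the group, 14.86 to 15.68 beside a highest signal of 16.55 on the 4 arrays, and whether differences are compressed at this level was not tested. TUBB4A, a beta tubulin best known from nerve cells, had the largest difference of the group, with 8.84 and 8.07 against 6.50 and 6.93 (-1.74). It differed by -2.34 at 7 h and -1.14 at 8 h and did not pass (SE 0.348, adjusted p = 0.0616). All but TUBA1C and TUBB4A were under all 8 DMSO arrays at both hours, which held for 3.81% of all genes. The 10 genes have 19 probe sets above the filter, and all 19 were lower at both hours, by -2.34 to -0.07 at 7 h and -1.14 to -0.24 at 8 h. Of the 19, 13 are of the type that can bind related transcripts, so the genes are not independent measurements of each other.

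**Figure D3:**
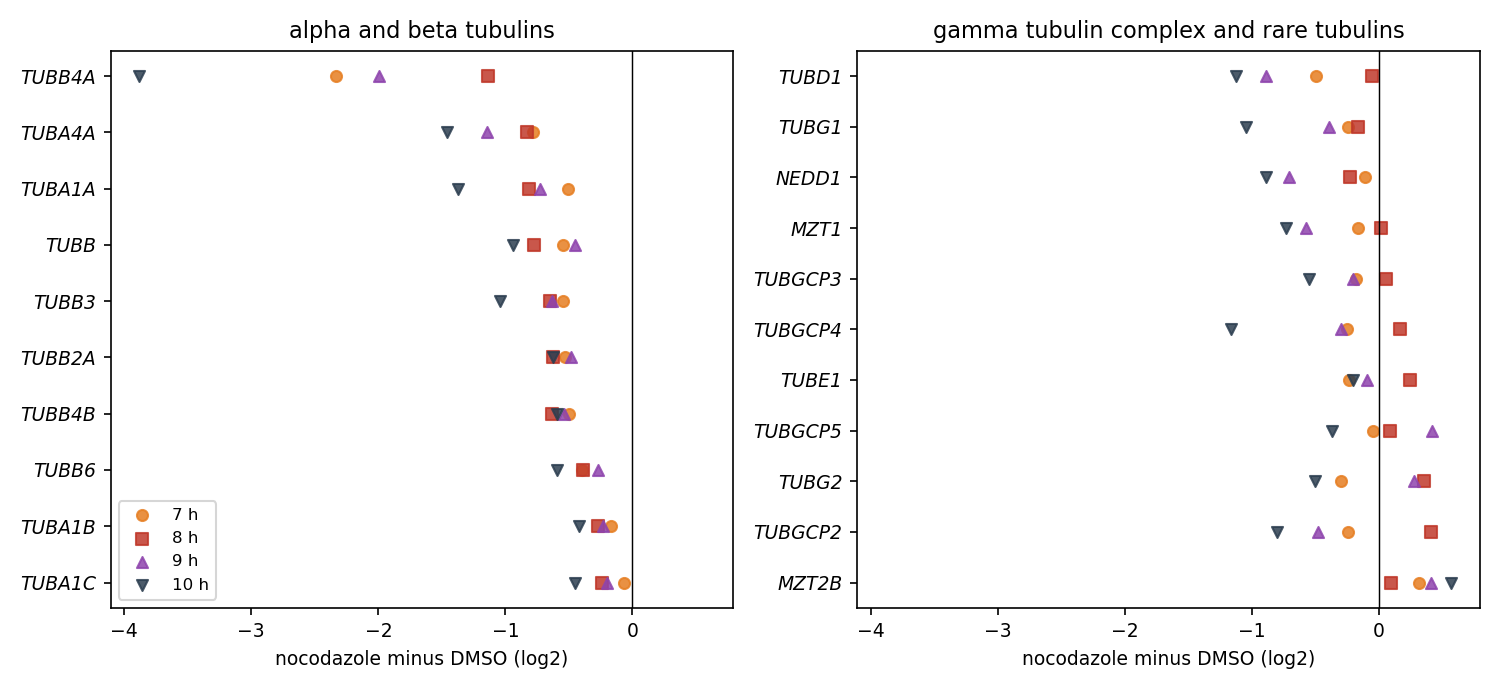
Difference between nocodazole and DMSO (x axis, log2) at 7, 8, 9 and 10 h for 10 alpha and beta tubulins (left) and 11 genes of the gamma tubulin complex and rare tubulins (right), 1 pair of arrays per symbol. All symbols on the left lie under 0, and those on the right lie on both sides at 8 h.

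Genes that nucleate, fold or bind tubulin did not share this pattern. Gamma tubulin genes, whose products start new microtubules, and rare tubulins numbered 11, of which 3 were lower at both hours, 1 was higher and 7 changed sign, with a median of -0.04. TUBG1, the main gamma tubulin, differed by -0.24 and -0.17 (adjusted p = 0.998). Of 18 genes of tubulin folding, which make the CCT chaperonin, prefoldin and the tubulin cofactors, 4 were higher and 5 lower at both hours, within -0.13 and 0.08. Of 16 microtubule-associated proteins 3 were higher and 1 lower, and of 19 motor genes of interphase 5 were higher and 2 lower. In these 4 lists 0 of 64 genes passed limma's test. STMN1, which binds free tubulin dimers, differed by -0.13 and -0.10, and MAPRE1, which tracks growing microtubule ends, by 0.23 and 0.04.

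CCNE2, which encodes cyclin E2, a partner of CDK2 at the G1/S transition, had the largest difference of the genes that fell. Its signals were 8.78 and 9.31 with DMSO and 5.96 and 6.55 with nocodazole, a difference of -2.79 or 6.93-fold (SE 0.308, adjusted p = 0.000321). The lowest of all 8 DMSO arrays was the one at 7 h. Its other probe set differed in the same direction, by -2.07 and -2.60. Of 38 G1/S and replication genes above the filter, 29 were lower at both hours and 2 higher, beside 21.3% and 18.3% of all genes. Under all 8 DMSO arrays were 18 of the 38, beside 3.81% of all genes, and 1, CCNE2, passed. The median difference of the 38 was -0.19, and with each array centred on its median the number lower at both hours was 19. E2F8, a repressor of the E2F family, differed by -0.83 and -0.87 (adjusted p = 0.724), DTL, a substrate receptor for the degradation of licensing factors, by -0.44 and -0.75 (adjusted p = 0.253) and CCNE1, the other cyclin E gene, by -0.44 and -0.47 (adjusted p = 0.688).

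Genes of mitotic entry and the spindle differed little at these hours. Of 44 such genes, all of them above the filter, 10 were higher at both hours, 10 lower and 24 changed sign, 0 passed, and the median was 0.00. CENPA, the centromeric histone, differed by 0.16 and 0.33, CDCA8, a chromosomal passenger subunit, by 0.14 and 0.25 and KIF11, the spindle motor Eg5, by 0.11 and 0.12. Above all DMSO arrays at both hours were 2 of the 44, beside 245 of all 9130 genes (2.68%).

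**Figure D4:**
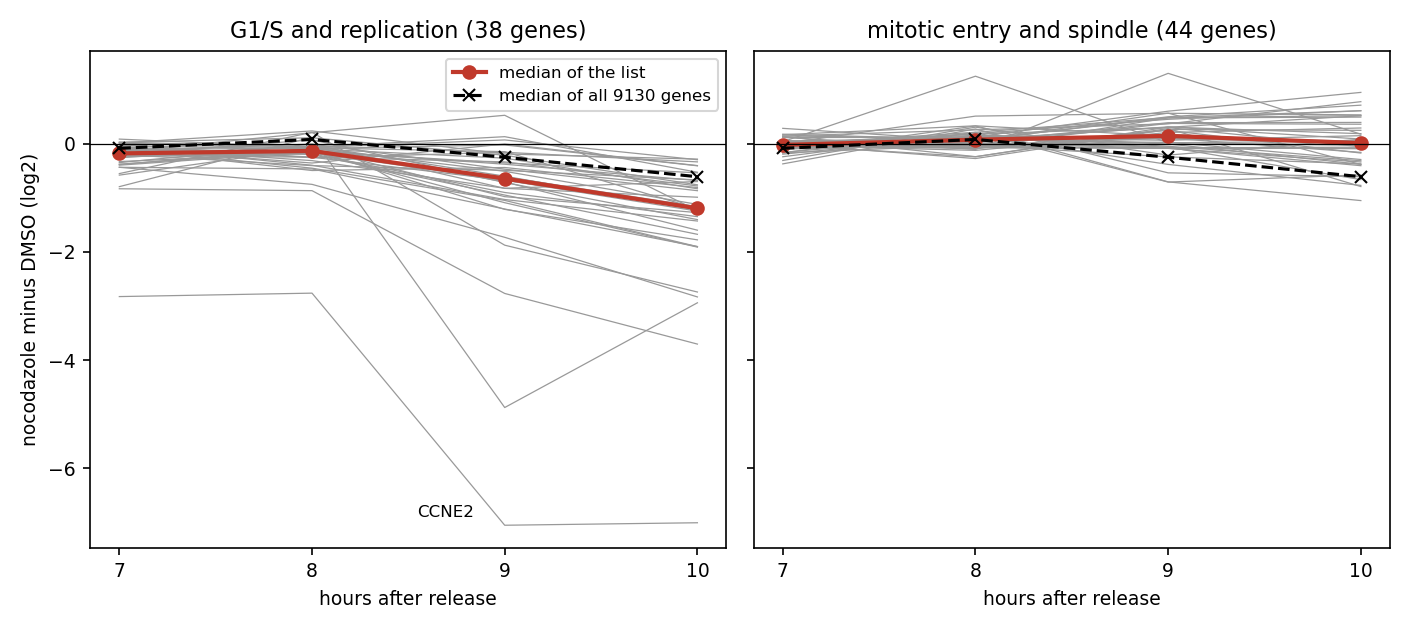
Difference between nocodazole and DMSO (y axis, log2) against hours after release (x axis) for 38 G1/S and replication genes (left) and 44 genes of mitotic entry and the spindle (right), 1 thin line per gene, with the median of each list and of all 9130 genes. The G1/S median is -0.18 and -0.14 at 7 and 8 h and falls to -0.65 and -1.19 at 9 and 10 h, and the mitotic median stays between -0.02 and 0.14.

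The other genes that fell were ID2, ID1, ZNF503, YWHAE, DLX2 and PAXIP1-DT. ID2, which blocks basic helix-loop-helix factors and is a target of BMP signalling, stood at 13.24 and 13.46 with DMSO and 12.46 and 11.91 with nocodazole, a difference of -1.16 or 2.24-fold (SE 0.125, adjusted p = 0.000321). Its relative ID1 stood at 12.17 and 12.13 with DMSO and 11.63 and 11.11 with nocodazole (-0.78, SE 0.110, adjusted p = 0.00352). They were the 2 members that passed among 8 genes of ID, BMP and TGF-beta feedback, of which 6 were lower at both hours (3 with each array centred on its median). TGIF1, a corepressor of SMAD signalling, differed by -0.41 and -0.46 (adjusted p = 0.261). ZNF503, a zinc finger gene, stood at 11.10 and 11.43 with DMSO and 10.24 and 10.06 with nocodazole (-1.12, SE 0.137, adjusted p = 0.000782). YWHAE, which encodes the 14-3-3 epsilon adaptor, fell least of the 25, from 14.84 and 14.85 to 14.45 and 14.59 (-0.32, SE 0.0601, adjusted p = 0.0355). DLX2, a homeobox gene, stood at 4.71 and 5.48 with DMSO and 3.55 and 3.51 with nocodazole (adjusted p = 0.0112), and PAXIP1-DT at 4.47 and 4.25 against 3.26 and 3.33 (adjusted p = 0.0450). These 4 nocodazole signals are at the low end of the scale, both genes were left out by a filter on the 4 arrays alone, and neither passed after quantile normalization (adjusted p = 0.0506 for DLX2 and 0.263 for PAXIP1-DT).

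AXIN2, a target and feedback inhibitor of Wnt signalling, stood at 8.40 and 8.39 with DMSO and 7.27 and 6.56 with nocodazole, a difference of -1.13 at 7 h and -1.83 at 8 h. Both signals with nocodazole were under the lowest of the 8 DMSO arrays, 8.27. The gene did not pass the test (-1.48, SE 0.321, adjusted p = 0.0889) and passed after quantile normalization (adjusted p = 0.00171). Of the 9 other Wnt targets above the filter 1 was lower and 3 were higher at both hours, with a median of 0.07, and SOX9 was 0.56 and 0.23 higher (adjusted p = 0.130).

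By size alone, 4 genes were at least 2-fold higher at both hours (0.0438%) and 5 at least 2-fold lower (0.0548%). Those higher were JUN, ETS1, EXT1 and SNX21, and those lower were CCNE2, TUBB4A, AXIN2, DLX2 and ING2. SNX21 reached the filter's level only with nocodazole, and DLX2 and ING2 only with DMSO, so their differences depend in part on the filter. Without them 3 genes were higher and 3 lower, and a filter on the 4 arrays alone left 3 and 4. ETS1, a transcription factor, stood at 7.66 and 7.33 with DMSO and 8.71 and 8.55 with nocodazole (adjusted p = 0.224). EXT1, an enzyme that builds heparan sulfate, stood at 8.38 and 7.76 with DMSO and 9.38 and 9.25 with nocodazole (adjusted p = 0.0637). SNX21, a sorting nexin, was 1.16 and 1.02 higher at signals of 3.84 to 5.00, and ING2, a chromatin reader, differed by -1.07 and -1.37 at signals of 4.26 to 5.79. The genes just inside the limit were EXT1 (9.38 against 8.38 at 7 h) and ING2 (-1.07), and those just outside were C1orf116 (0.97 at 8 h) and BCOR (-0.98), whose nocodazole signals were 3.56 and 3.55. Of the genes with the next largest differences, FGD6, a regulator of small GTPases, was 0.88 and 1.70 higher and SEMA7A, a membrane semaphorin, 0.87 and 1.20 higher, both above all 8 DMSO arrays (adjusted p = 0.253 and 0.431). ARRDC3, an arrestin family adaptor, differed by -0.94 and -1.87 and was under all 8 DMSO arrays (adjusted p = 0.0802). CDK5R1, an activator of CDK5, differed by -1.17 and -0.96 (adjusted p = 0.482), within the range of the DMSO course.

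Genes of other stress pathways showed counts on both sides, and 0 passed. Of 22 p53 targets 2 were higher and 9 lower at both hours, with a median of -0.07, and TP53INP1, a p53-induced autophagy and death gene, differed by -0.63 and -0.20. Of 14 BCL2 family genes 6 were higher and 1 lower, with a median of 0.13. The largest of these differences was that of BIK, a proapoptotic member, with 10.18 and 9.86 against 10.72 and 10.52 (0.60, adjusted p = 0.130). The antiapoptotic BCL2L1 and MCL1 were higher by 0.34 and 0.24 (adjusted p = 0.387 and 0.759). For each of these 2 genes, 3 of 4 probe sets were higher at both hours. Of 8 NF-kB targets 1 was higher and 4 lower (median -0.15), and NFKBIA, the inhibitor induced by NF-kB, differed by -0.59 and -0.35. Of 20 genes of ATF4 and the unfolded protein response 5 were higher and 6 lower (median -0.001), and of 12 heat shock chaperones 2 were higher and 3 lower (median 0.00). DNAJB9, a chaperone of the endoplasmic reticulum, differed by -0.52 and -0.97 (adjusted p = 0.915).

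Of 15 cholesterol synthesis genes 9 were higher and 2 lower at both hours, with a median of 0.18, and 0 passed. INSIG1, which holds the sterol sensor in the endoplasmic reticulum, was 0.70 and 0.38 higher, and MSMO1, a sterol oxidase, 0.35 and 0.39, neither passing the test. Of 9 G1 cyclins, their kinases and CDK inhibitors 1 was higher and 3 lower (median -0.05), with CDKN1B, the inhibitor p27, at -0.25 and -0.32. Of 44 replication-dependent histone genes 31 were on the array and only 4 above the filter, 1 higher and 3 lower. Their transcripts lack a poly(A) tail.

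**Figure D5:**
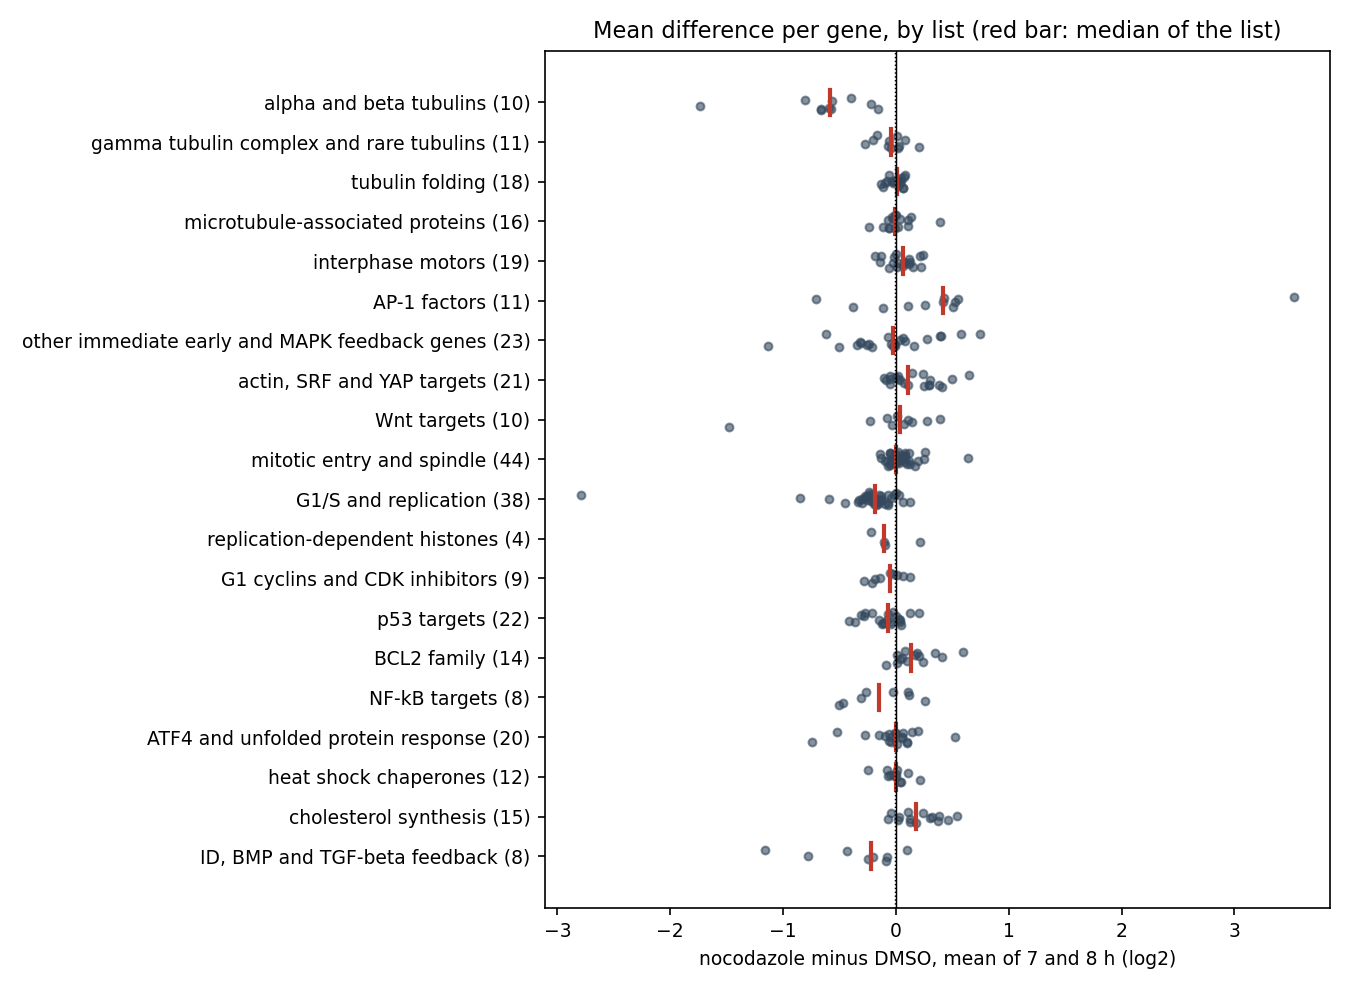
Mean of the differences at 7 and 8 h (x axis, nocodazole minus DMSO, log2) for each gene of 20 lists (rows, with the number of genes above the filter), 1 point per gene, with a bar at the median of the list. The alpha and beta tubulins lie wholly under 0 (-1.74 to -0.16), JUN lies at 3.53 in the AP-1 row and CCNE2 at -2.79 in the G1/S row.

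The 4 arrays at 9 and 10 h, which the test did not use, were set beside these results. There the nocodazole arrays had lower medians, with a median difference of -0.25 at 9 h and -0.61 at 10 h, and 70.1% of all genes were lower at both hours and 14.2% higher (39.3% and 40.5% after quantile normalization). Of the 15 genes that fell 14 were also lower at 9 and 10 h, with and without quantile normalization, and YWHAE was not. The filter used these arrays too, and DLX2 and PAXIP1-DT are among the 14. Of the 10 that rose 7 were also higher there, or 8 after quantile normalization. The alpha and beta tubulins were lower in 10 of 10 at 9 and 10 h, with medians of -0.51 and -0.78. ERRFI1 was 0.98 and 0.60 higher and F3 0.84 and 0.68 higher, whereas DUSP5 differed by -0.12 and -0.68.

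Whether the difference changed between the windows was tested with a limma interaction on the 8 arrays at 7 to 10 h. Over all genes 1122 passed (12.3%), 940 of them toward lower values, and with quantile normalization 719 passed. Of the 25 genes 5 passed, CCNE2, ID1, JUN, DUSP5 and DLX2. CCNE2 stood at 3.26 and 3.83 with nocodazole at 9 and 10 h, a further change of -4.23 (SE 0.351, adjusted p = 0.000169), and these signals are again at the low end of the scale. The difference of ID1 widened by -1.53 (SE 0.287, adjusted p = 0.0104). That of JUN narrowed by 1.33 in size, as DMSO rose and nocodazole stood at 10.19 and 10.17 (change -1.33, SE 0.329, adjusted p = 0.0241). After quantile normalization the change was -4.29 for CCNE2, -1.11 for ID1, -0.87 for JUN, -0.79 for DUSP5 and -1.70 for DLX2, and all 5 still passed. For none of the 10 alpha and beta tubulins did limma find a change between windows (adjusted p of 0.138 to 0.998), which does not show that their differences were equal. With 1 array per condition, adjusted p rests on how closely 2 hours match and, through moderation, on the spread of genes of similar signal. Moderation raised 1 residual degree of freedom to 14.5, and with no intensity trend 0 of the 25 passed. JUN passed under 9 of 11 alternative settings, CCNE2 under 8, TUBA4A and ZNF503 under 7, JUND under 4 and each other gene under fewer than 7. Each hour was also left out of a spline of time fitted to the 12 arrays. Without 7 h KLF6 moved from 0.64 to 0.44 in that fit, F3 from 0.59 to 0.69 and ID1 from -0.98 to -1.37. Without 8 h ID2 moved from -1.13 to -0.77. Against the 4-array fit these 4 values differ by more than 1.5 times, which mixes the change of fit with the hour left out.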

How the data were processed

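The authors deposited log2 signals per probe set, which they made with GC-RMA (no version is given, and base 2 was inferred from how far the values reach). All 12 columns were matched to samples by title. Probe sets were named through the array's annotation (41097 with 1 symbol, 1801 with several, 11777 with none). A probe set with 1 symbol entered if it reached 5 on 2 or more arrays (15030 did), and the brightest on average stood for its gene.

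Tests used limma 3.58.1, run in R 4.3.3 (intensity trend, hour as a block, Benjamini-Hochberg over 9130 genes). With 1 array per condition and no statement of separate cultures, p does not measure the spread between cultures. It rests on how far 2 hours lie apart, moderated by the spread of genes of similar signal. On simulated data 78% of changes of 1 and 100% of changes of 2 on the log2 scale were recovered, with 13 false calls among 9130 genes. The simulated noise was independent and drawn from the spread that the fit itself estimated, with no shifts between arrays. These shares hold for that case and do not give the recovery in the real arrays. The genes named were the 25 that passed, the alpha and beta tubulins, the 10 in each direction with the largest smaller difference at the same sign at both hours, up to 4 members of each list by that measure, and the 5 that passed and changed most clearly after 8 h. The members and the 20 gene lists were chosen with earlier results of these data known. Counts were made in Python 3.11.15 (pandas 2.3.3, numpy 2.4.6) and drawn in matplotlib 3.10.9. Alternatives were quantile normalization, median centring, no filter, a filter at 7, a filter on the 4 arrays, averaged probe sets, no trend, no hour block, a 12-array spline of time with 3 degrees of freedom, and each hour left out, for which that spline was fitted to the remaining arrays.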

Additional observations from a re-analysis of the deposited data

Results flagged for a closer look

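For 23 of 109 named genes the limma interaction found that the difference between nocodazole and DMSO was not the same at 7 and 8 h as at 9 and 10 h. The change was downward in 22 and upward in KIF1C, an interphase kinesin (0.82). Among all 9130 genes the same test found 1122 (12.3%), of which 940 moved downward, and the median of all genes also moved down between these windows. Many named genes were picked by the size of their differences at 7 and 8 h, values that the interaction also uses. Their share and direction therefore cannot be read as a trait of the named genes. Of the 23 genes, 17 passed after quantile normalization as well.

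The largest changes were those of CCNE2 (-4.23), METTL6 (-3.23), DNAJB9 (-2.99), RRP8 (-2.82) and TP53INP1 (-2.64). Among genes of G1/S and replication and of histones, E2F8 changed by -2.38, H2BC6 by -2.37, DTL by -1.69, H1-2 by -1.58 and CCNE1 by -1.10. Among transcription regulators, ING2 changed by -2.09, JUNB by -1.96, ID1 by -1.53, DLX2 by -1.47, JUN by -1.33, ATF3 by -1.15 and TGIF1 by -0.99. The changes of the others were -1.48 for FGD6, -1.42 for HSPA4L, -1.17 for CCND3, -1.05 for PPM1D and -0.97 for DUSP5. These sizes are for the values as deposited, without quantile normalization. ATF3, FGD6, PPM1D, CCNE1, HSPA4L and TGIF1 did not pass after quantile normalization. Nocodazole signals of CCNE2, RRP8, METTL6, TP53INP1, ING2, DLX2 and H2BC6 were under 4 on at least 1 array at 9 and 10 h, where the size of a change is uncertain.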

How the results depend on the processing

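The count of 25 genes at 7 and 8 h was 106 after quantile normalization (23 of the 25 among them), 72 with median centring (10 of the 25), 180 with no filter, 73 with a filter at 7 and 76 with the mean of probe sets. It was 5 with the 12-array spline (JUN, CCNE2, TUBA4A, TUBB2A and ZNF503), 1 without the hour block (JUN) and 0 with no intensity trend, where 225 genes had an unadjusted limma p under 0.05 beside 362 in the reported fit. Leaving out an hour gave 0 to 3, with 0 without the 8 h arrays (228 unadjusted) and 3 without the 7 h arrays. Moderation, which set 14.5 degrees of freedom here, pooled the spread of all genes wholly under median centring, no filter, the filter at 7 and the mean of probe sets. In none of these settings did the 25 change direction. The reported fit pairs arrays by hour, and the fit without the hour block is its unpaired counterpart. Replicate numbers give no further pairing, since each condition has 1 array.

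The 1122 changes between windows became 719 after quantile normalization, 10073 with no filter, 1742 with a filter at 7, 1714 with the mean of probe sets, 3421 with the spline and 331 to 2650 with an hour left out. Genes lower at both hours numbered 3267 with no filter. At single hours 2917 to 5941 genes were higher, 3189 to 6213 lower, 43 to 106 at least 2-fold higher and 51 to 112 at least 2-fold lower. After quantile normalization 3 genes were at least 2-fold lower and 579 under all DMSO arrays, and 3 were 2-fold lower with a filter at 7. Lower at both hours under median centring were 19 G1/S and 3 ID and BMP genes, and single hours gave 11 to 19 higher actin genes, 12 to 17 lower p53 targets and 8 to 11 higher BCL2 genes. Named genes outside the 25 that turned sign had small differences: with an hour left out NEDD1 (-0.142 to 0.051), PFDN2 (-0.004 to 0.010), MAPRE1 (-0.010 to 0.194), H1-2 (-0.160 to 0.062) and KRT8 (-0.004 to 0.308), CENPF (-0.064) and HSPA4 (0.025) by the mean of probe sets, BMP4 (0.044, 0.033 and 0.178), H2BC5 (0.058, 0.109 and 0.164) and CCND3 (-0.044, -0.140 and -0.047) with the spline and without 7 h or 8 h. The causes were not tested. Precision is limited by having 1 array per condition.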
